A study of Mus musculus with 18 samples.

Results

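The genes described here are 41 genes of ribosome biogenesis and the nucleolus, taken from a list of 42 names. A listed gene was kept where the array annotation tied a probeset to that symbol and no other, and its probeset with the highest mean was used. This left the 41 genes among the 19938 genes of the array named in this way, and Noc2l is not analysed here. The list was set by name and role, but it was chosen with earlier results of these data known. The shares of the 41 genes called below are therefore not those of a list blind to these data. Ribosomes are made in the nucleolus, where RNA polymerase I copies the rRNA genes into a long precursor. Small nucleolar ribonucleoproteins (snoRNPs) modify that precursor, and large sets of assembly factors fold and trim it into the small and large subunits. The transcription factor MYC is known to raise the expression of many of these genes in growing and dividing cells, and ribosome production is usually low in cells that have stopped dividing.

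XCR1+ dendritic cells (DCs), which take up dying cells and cross-present their antigens to CD8 T cells, were sorted from the thymus of untreated B6 mice and measured on 18 Affymetrix whole-transcript arrays. The homeostatically matured cells were CCR7+ and CD117-, the immature cells were CCR7- and CD117+, and both gates also required CD11c, MHCII, XCR1 and CD8a and the absence of CD11b and CD172a. Each stage was sampled in 3 backgrounds with 3 arrays per group. These were Ifnar1-KO mice, which lack a chain of the type I interferon receptor and were kept free of specific pathogens (SPF), wild-type mice kept germ-free (GF), and wild-type SPF mice (CTRL). The labels do not state how the Ifnar1 deletion was made, the age or sex of the mice, any pooling of thymi, or that each array stands for its own mouse. The p-values therefore speak only of the variation from array to array.

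All values are log2 intensities as deposited, and a change is the difference of 2 group means on that scale. Genes were called higher or lower where limma gave a Benjamini-Hochberg adjusted p under 0.05 over all 19938 genes. Errors beside a change are limma standard errors with n = 3 arrays per group. Their variance is pooled over all 6 groups and moderated across genes, so a gene has the same error in each background. They do not show the spread of the arrays of a single group. Within groups the arrays correlated at 0.974 to 0.996. The Ifnar1-KO replicate 2 and the GF replicate 2 and 3 arrays stood apart: the proliferation marker Mki67 read 5.60 to 5.65 on these 3 CCR7+ arrays against 6.81 to 7.70 on the other 6, and 6.59 to 7.02 on these 3 CCR7- arrays against 9.04 to 9.35 on the other 6. On the same arrays the mean level of the 41 genes was 6.18 to 6.28 in CCR7+ cells (6.02 to 6.33 on the other 6 arrays) and 7.43 to 7.51 in CCR7- cells (7.53 to 7.84 on the other 6). The sort genes followed the labels, with Ccr7 at 11.79 to 12.09 in CCR7+ and 7.25 to 9.09 in CCR7- cells. Ifnar1 read 6.07 to 7.61 in Ifnar1-KO against 7.61 to 7.82 in CTRL CCR7+ cells, and 7.27 to 8.07 in Ifnar1-KO against 8.06 to 8.09 in CTRL CCR7- cells. The annotation does not say whether its probes lie in the deleted part, so this level does not check the genotype.

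The first question was how the 41 genes differ between mature and immature cells of the same background. Almost all of them were lower in mature cells. In Ifnar1-KO mice 36 of 41 were called lower (87.8%), against 10.8% of all genes called lower in that comparison. In GF mice 37 of 41 were called lower (90.2%, against 11.8% of all genes), and in CTRL mice 38 of 41 (92.7%, against 13.6% of all genes). None was called higher in any of the 3 backgrounds, where 9.42%, 9.53% and 12.6% of all genes were, in the order Ifnar1-KO, GF and CTRL. The median change was -1.30 in Ifnar1-KO, a 2.46-fold lower level, -1.19 or 2.29-fold in GF, and -1.47 or 2.77-fold in CTRL mice. Over all genes the medians were 0.00, 0.03 and 0.07 in the same order. Without the Ifnar1-KO replicate 2 and GF replicate 2 and 3 arrays, 38, 32 and 39 of the 41 genes were called lower in that order, with 1 array per GF stage assumed to vary like the other groups.

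The same genes were called in most cases: 35 of 41 were called lower in all 3 backgrounds, against 8.71% of all genes. In 32 of the 41 genes all 9 CCR7+ arrays lay below all 9 CCR7- arrays, a pattern seen in 8.28% of all genes. The 9 genes whose stages overlapped on at least 1 array were Polr1c, Naf1, Ncl, Npm1, Ddx21, Utp15, Utp18, Nop14 and Nob1. Within single backgrounds all 3 CCR7+ arrays lay below all 3 CCR7- arrays for 38 of the 41 genes in Ifnar1-KO (15.2% of all genes), 36 in GF (15.7%) and 40 in CTRL mice (20.2%). A called fall of at least 1, or 2-fold, was measured for 26 genes in Ifnar1-KO, 24 in GF and 32 in CTRL mice (5.73%, 6.2% and 7.44% of all genes). Called falls of at least 2 were measured for 9, 8 and 9 genes in the same order (1.65%, 1.89% and 2.34% of all genes). In sorted cells measured in bulk, fewer cells with a transcript and less of it per cell cannot be told apart.

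**Figure D1:**
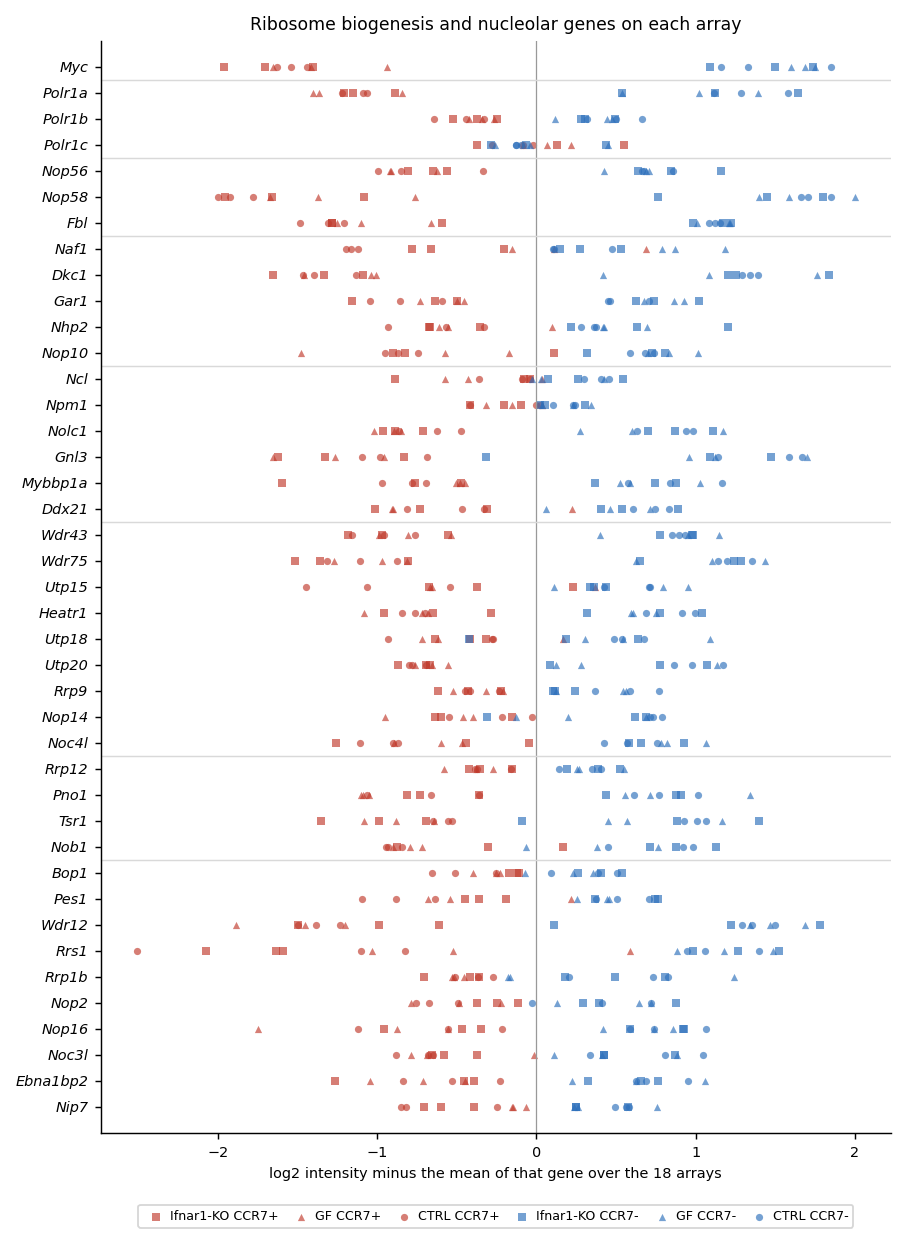
Level of each of the 41 genes on every array, as log2 intensity minus the mean of that gene over the 18 arrays. Red symbols are CCR7+ arrays and blue symbols CCR7- arrays, with squares for Ifnar1-KO, triangles for GF and circles for CTRL mice, and grey lines separate the roles. In 32 genes every red symbol lies to the left of every blue one, while the colours mix for Polr1c.

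Myc itself, the transcription factor known as a driver of ribosome production, was among the genes with the largest falls. In Ifnar1-KO mice it read 5.15, 5.71 and 5.40 in CCR7+ cells, against 8.20, 8.61 and 8.84 in CCR7- cells. In GF mice the values were 5.70, 6.17 and 5.45 in CCR7+ and 8.80, 8.86 and 8.71 in CCR7- cells. In CTRL mice they were 5.57, 5.67 and 5.48 in CCR7+ and 8.96, 8.44 and 8.27 in CCR7- cells. The stages were separated by more than 2 log2 units on every array. The changes were -3.13 ± 0.21 in Ifnar1-KO, -3.01 ± 0.21 in GF and -2.98 ± 0.21 in CTRL mice, folds of 8.76, 8.08 and 7.92 lower, with limma adjusted p-values of 6.94e-08, 8.99e-08 and 9.31e-08.

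Other genes of the network in which MYC acts moved in both directions. MYC binds DNA as a dimer with MAX, and the MXD proteins and MXI1 compete for MAX and repress many of the same genes. Of 10 measured network genes other than Myc, 3 were called higher in each background, while 3 were called lower in Ifnar1-KO, 2 in GF and 3 in CTRL mice. In that order 9.42%, 9.53% and 12.6% of all genes were called higher and 10.8%, 11.8% and 13.6% lower. Mycl, a MYC relative expressed in DCs, read 5.82 to 6.13 in CCR7+ against 7.18 to 8.09 in CCR7- cells of Ifnar1-KO mice, and changed by -1.63 ± 0.27 there, by -2.07 ± 0.27 in GF and by -2.08 ± 0.27 in CTRL mice. Max changed by -0.61 ± 0.11, -0.72 ± 0.11 and -0.66 ± 0.11 in the same order, and all 3 falls were called.

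The MAX partner Mxd1 was the network gene with the largest rise. It read 10.62, 10.12 and 10.68 in CCR7+ against 6.53, 7.50 and 6.54 in CCR7- cells of Ifnar1-KO mice. The GF values were 10.63, 10.42 and 10.11 in CCR7+ and 7.13, 6.38 and 6.42 in CCR7- cells, and the CTRL values 10.48, 10.57 and 10.39 in CCR7+ and 7.25, 7.08 and 7.18 in CCR7- cells. No array of 1 stage came near the other. The rises were 3.61 ± 0.25, 3.75 ± 0.25 and 3.31 ± 0.25 in Ifnar1-KO, GF and CTRL mice (limma adjusted p = 9.18e-08, 6.10e-08 and 1.76e-07). Mxi1 rose by 0.76 ± 0.15, 0.87 ± 0.15 and 1.11 ± 0.15 and Mxd4 by 0.82 ± 0.15, 0.67 ± 0.15 and 0.57 ± 0.15 in the same order. Mxd3, which in other cells goes with DNA synthesis, changed by -0.43 ± 0.11 in Ifnar1-KO and by -0.42 ± 0.11 in CTRL mice and changed by -0.31 ± 0.11 in GF mice, where it was not called. Mycn, Mnt, Mlx and Mga were called in no background.

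**Figure D2:**
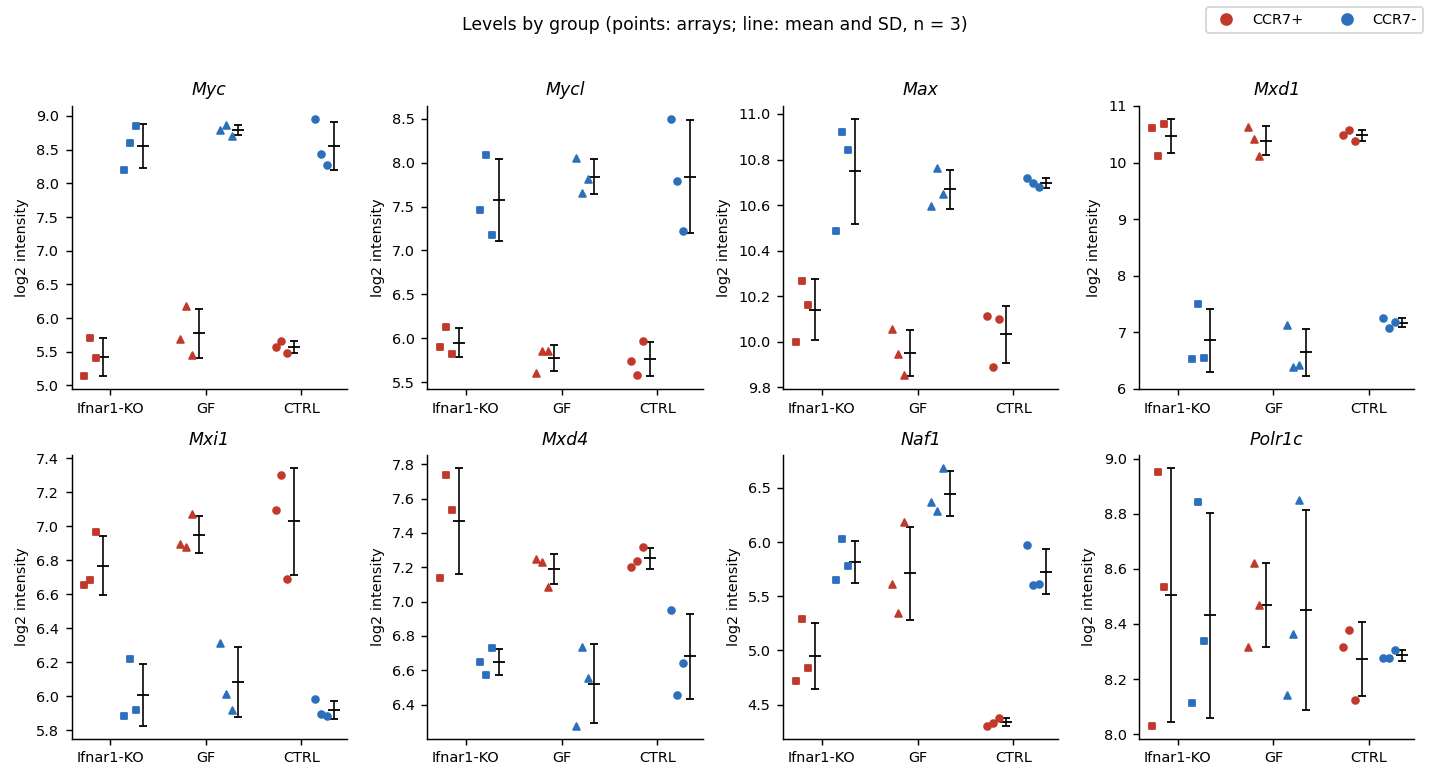
Levels of Myc, 5 genes of the MYC and MAX network, and Naf1 and Polr1c, as log2 intensity (each panel has its own axis, which does not start at 0). Points are single arrays, red for CCR7+ and blue for CCR7-, and the black line gives the mean and SD of 3 arrays. Myc, Mycl and Max are lower and Mxd1, Mxi1 and Mxd4 higher in CCR7+ cells of all 3 backgrounds, while Polr1c overlaps between stages.

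MYC and MAX bind the E-box CACGTG, which reads the same on both strands, so promoters were searched for these letters. RefSeq promoter windows (build GRCm38.p6, from 250 bases before to 50 bases after the annotated start) were found by gene symbol for 34 of the 41 genes. Bop1, Fbl, Myc, Naf1, Npm1, Rrp12 and Rrs1, some of them with large falls, had no window and were not searched. The letters CACGTG stood in the window of 8 of the 34 genes (23.5%). The share was 8.1% of all 27025 genes with a window and 9.5% of the 15614 genes of the array with one. It was 12% of the 10038 genes whose windows held at least as many CpG dinucleotides as the lower quartile of the 34. Among lists described above and below, it was 40% of 10 MYC and MAX network genes and 20% of 30 other small subunit factors. The shares were 16.7% of 12 other RNA polymerase I genes, 15.8% of 38 other large subunit factors and 11.6% of 43 ribosomal protein genes. They were 7.1% of 14 snoRNP assembly and RNA exosome genes and 6.2% of 16 cell division genes. The 8 genes had a median CTRL change of -1.54 (range -1.85 to -1.01), and the 26 genes without the letters one of -1.46 (range -3.64 to -0.01). A match is a description of the letters in this window and shows no binding. Nop58, Dkc1 and Wdr12, which had some of the largest falls, did not have the letters in their windows. The stretches around the letters are shown because they hold the one motif searched for in genes that moved together. They run from 5′ to 3′ on the strand of the gene, with CACGTG in capitals.
Mybbp1a: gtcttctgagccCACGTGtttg
Nop2: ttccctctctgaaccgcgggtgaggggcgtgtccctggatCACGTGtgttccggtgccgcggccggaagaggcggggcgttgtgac
Pes1: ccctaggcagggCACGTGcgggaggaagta
Pno1: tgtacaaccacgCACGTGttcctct
Tsr1: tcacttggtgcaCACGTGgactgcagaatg
Utp18: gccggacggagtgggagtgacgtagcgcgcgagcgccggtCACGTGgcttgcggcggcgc
Utp20: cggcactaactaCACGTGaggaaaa
Wdr43: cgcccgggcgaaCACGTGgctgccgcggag
These lie at chr11:72441355-72441376 (Mybbp1a, plus strand), chr6:125131783-125131868 (Nop2, plus), chr11:3963965-3963994 (Pes1, plus), chr11:17211540-17211564 (Pno1, minus), chr11:74898092-74898121 (Tsr1, plus), chr11:93885767-93885826 (Utp18, minus), chr10:88826765-88826789 (Utp20, minus) and chr17:71616220-71616249 (Wdr43, plus). In Nop2 and Utp18 the letters lay upstream of the annotated start, with their first base 60 and 20 bases before it. In the other 6 genes they lay 3 to 41 bases downstream of it.

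RNA polymerase I, which transcribes the rRNA precursor, was represented by 3 subunits that did not move alike. Polr1a, the largest subunit, read 4.75, 4.81 and 5.07 in CCR7+ against 7.08, 6.50 and 7.61 in CCR7- cells of Ifnar1-KO mice, 4.56, 5.12 and 4.60 against 7.36, 6.98 and 6.50 in GF mice, and 4.87, 4.90 and 4.74 against 7.54, 7.24 and 7.08 in CTRL mice. All 9 CCR7+ arrays lay below all 9 CCR7- arrays. Its changes were -2.18 ± 0.25, -2.19 ± 0.25 and -2.45 ± 0.25 in Ifnar1-KO, GF and CTRL mice (limma adjusted p = 1.41e-05, 1.29e-05 and 3.88e-06). Polr1b, the other catalytic subunit, read 4.01 to 4.40 over the CCR7+ arrays, where its group means lay under the median gene level of 4.68, against 4.77 to 5.31 over the CCR7- arrays. Its changes were -0.74 ± 0.12, -0.69 ± 0.12 and -0.96 ± 0.12, all called.

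Polr1c, a subunit shared with RNA polymerase III, read 8.03 to 8.95 on the CCR7+ arrays and 8.11 to 8.85 on the CCR7- arrays, and the stages overlapped fully. It changed by 0.07 ± 0.22, 0.02 ± 0.22 and -0.01 ± 0.22 in Ifnar1-KO, GF and CTRL mice (limma adjusted p = 0.904, 0.974 and 0.974). The 95% intervals of these changes, -0.41 to 0.55, -0.46 to 0.50 and -0.49 to 0.47, leave out falls of the size of Polr1b in CTRL mice. The sign of the change turned under single arrays left out and, in CTRL mice, with array weights. Of 13 other genes of the RNA polymerase I machinery, 5 in Ifnar1-KO, 6 in GF and 7 in CTRL mice were called lower and none higher (medians -0.58, -0.63 and -1.13). The shares called lower were 38.5%, 46.2% and 53.8%, against 10.8%, 11.8% and 13.6% of all genes. The subunit genes Polr1e, at -1.35 ± 0.14, -1.35 ± 0.14 and -1.75 ± 0.14, and Znrd1, at -1.16 ± 0.20, -1.53 ± 0.20 and -1.75 ± 0.20, were called in all 3 backgrounds. Taf1a, part of the promoter selectivity factor, was called in CTRL mice at -2.16 ± 0.36 and measured -0.58 ± 0.36 and -0.63 ± 0.36 in Ifnar1-KO and GF mice, where it was not called.

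The box C/D snoRNP proteins carry out the methylation of rRNA. They were called lower in 3 of 3 cases in each background (10.8%, 11.8% and 13.6% of all genes in Ifnar1-KO, GF and CTRL mice). Their medians of -2.18, -2.15 and -2.45 in Ifnar1-KO, GF and CTRL mice were the largest falls among the roles with more than 1 gene. Each median is the change of the probeset used for Fbl. With a different Fbl probeset (-0.76 in CTRL mice) the CTRL median would be that of Nop56, -1.46. That is a smaller fall than the median of -1.63 for the small subunit processome, so the rank in CTRL mice depends on the probeset. Nop58, a core protein of these particles, read 5.38, 5.09 and 5.96 in CCR7+ against 8.49, 7.80 and 8.84 in CCR7- cells of Ifnar1-KO mice. The values were 5.67, 5.37 and 6.28 against 9.04, 8.63 and 8.44 in GF and 5.26, 5.12 and 5.04 against 8.75, 8.89 and 8.71 in CTRL mice. No CCR7+ array reached the lowest CCR7- array. In CTRL mice its change of -3.64 ± 0.28 (a 12.5-fold lower level, limma adjusted p = 1.75e-07) was the largest fall among the 41 genes, and ranked 69th in size of fall among all genes. The changes in Ifnar1-KO and GF mice were -2.90 ± 0.28 and -2.93 ± 0.28.

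Fbl, the methyltransferase fibrillarin, changed by -2.18 ± 0.17, -2.15 ± 0.17 and -2.45 ± 0.17, with 8.42 to 9.31 on the CCR7+ arrays and 10.88 to 11.12 on the CCR7- arrays. A different probeset of Fbl, which reads at a lower level, had a change of -0.76 in CTRL mice (5.53 in CCR7+ and 6.29 in CCR7- cells), so the direction was shared and the size was not. Nop56, the partner of Nop58, changed by -1.55 ± 0.16, -1.42 ± 0.16 and -1.46 ± 0.16.

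Particles of the box H/ACA snoRNP genes convert uridine to pseudouridine and also form part of telomerase. The genes were called lower in 5 of 5 cases in every background (10.8%, 11.8% and 13.6% of all genes). Their medians were -1.25, -1.38 and -1.39, all in the order Ifnar1-KO, GF and CTRL mice. Dkc1, the pseudouridine synthase dyskerin, had the largest falls of the 5. It read 4.27, 3.95 and 4.52 in CCR7+ against 6.81, 6.86 and 7.45 in CCR7- cells of Ifnar1-KO mice, 4.60, 4.57 and 4.15 against 7.37, 6.69 and 6.03 in GF mice and 4.21, 4.47 and 4.14 against 6.90, 6.95 and 7.0 in CTRL mice. All CCR7+ arrays lay under the median gene level of 4.68, so the measured changes of -2.79 ± 0.27, -2.26 ± 0.27 and -2.67 ± 0.27 may understate the fall. Its binding partners Gar1, Nhp2 and Nop10 had smaller measured changes, Gar1 with -1.56 ± 0.17, -1.38 ± 0.17 and -1.37 ± 0.17, Nhp2 with -1.25 ± 0.23, -0.87 ± 0.23 and -0.95 ± 0.23, and Nop10 with -1.16 ± 0.29, -1.59 ± 0.29 and -1.52 ± 0.29. The GF call of Nhp2 was lost without any 1 of 3 single GF arrays (CCR7- replicate 3, or CCR7+ replicate 1 or 3), with limma adjusted p = 0.0561 to 0.0597.

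Naf1, which assembles the particle before Gar1 takes its place, was the only gene of the 41 that was called between backgrounds. In Ifnar1-KO mice it read 4.72, 5.29 and 4.84 in CCR7+ against 5.65, 6.03 and 5.78 in CCR7- cells. The values were 5.61, 5.35 and 6.19 against 6.37, 6.29 and 6.68 in GF and 4.31, 4.33 and 4.38 against 5.97, 5.60 and 5.61 in CTRL mice. Within each background every CCR7+ array lay below every CCR7- array, but 2 of the 3 GF CCR7+ arrays reached the levels of the immature CTRL cells. The maturation changes were -0.87 ± 0.20, -0.73 ± 0.20 and -1.39 ± 0.20 (limma adjusted p = 0.00483, 0.0144 and 8.28e-05). The GF call was lost without any 1 of 3 single GF arrays (CCR7- replicate 3, or CCR7+ replicate 1 or 2), with changes of -0.68 to -0.55 and adjusted p = 0.0533 to 0.0776 from limma.

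Among the nucleolar phosphoproteins, GTPases and helicases, Ncl and Npm1, which code for abundant nucleolar proteins, were the ones not called. Ncl (nucleolin) read 10.48, 9.67 and 10.52 in CCR7+ against 10.82, 10.63 and 11.10 in CCR7- cells of Ifnar1-KO mice, 10.59, 10.13 and 9.98 against 10.98, 10.53 and 10.58 in GF mice, and 10.46, 10.52 and 10.19 against 11.01, 10.85 and 10.96 in CTRL mice. All 3 CCR7+ arrays lay below all 3 CCR7- arrays in Ifnar1-KO and CTRL mice, while the stages overlapped in GF mice. Its changes of -0.63 ± 0.22, -0.46 ± 0.22 and -0.55 ± 0.22 missed the threshold (limma adjusted p = 0.0555, 0.16 and 0.0748). With replicate number as a block Ncl was called lower in all 3 backgrounds (adjusted p = 0.00667, 0.0268 and 0.0108 from limma). It was also called in Ifnar1-KO mice without Ifnar1-KO CCR7- replicate 2, Ifnar1-KO CCR7+ replicate 1 or 3 or GF CCR7+ replicate 1 (0.0342 to 0.0464), and in CTRL mice without Ifnar1-KO CCR7+ replicate 2 (0.0233). Npm1 (nucleophosmin) lay at 10.16 to 10.61 on the CCR7+ and 10.60 to 10.92 on the CCR7- arrays and changed by -0.37 ± 0.13, -0.35 ± 0.13 and -0.32 ± 0.13 (limma adjusted p = 0.0716, 0.0856 and 0.0902). It was called without CTRL CCR7+ replicate 3 in Ifnar1-KO (0.0377) and GF mice (0.0467). Npm1 has 3 more probesets that the annotation shares with other symbols, so near-identical copies may add to its signal.

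The 4 other genes of this role were called lower in each background (10.8%, 11.8% and 13.6% of all genes in Ifnar1-KO, GF and CTRL mice). Gnl3, the GTPase nucleostemin, read 5.62, 4.82 and 5.12 in CCR7+ against 7.54, 6.13 and 7.92 in CCR7- cells of Ifnar1-KO mice, 5.49, 4.80 and 5.18 against 8.15, 7.57 and 7.41 in GF mice and 5.35, 5.76 and 5.47 against 7.59, 8.12 and 8.04 in CTRL mice. Every CCR7+ array lay below every CCR7- array, the nearest being 5.76 and 6.13. Its changes were -2.01 ± 0.37, -2.55 ± 0.37 and -2.39 ± 0.37. Nolc1, a snoRNP chaperone, changed by -1.75 ± 0.19, -1.60 ± 0.19 and -1.51 ± 0.19, and Mybbp1a, a nucleolar regulator of transcription, by -1.61 ± 0.24, -1.19 ± 0.24 and -1.68 ± 0.24. The RNA helicase Ddx21 changed by -1.30 ± 0.27, -0.94 ± 0.27 and -1.27 ± 0.27; its GF call was lost without CCR7- replicate 1 or 3 or CCR7+ replicate 2 or 3 of GF mice (limma adjusted p = 0.0624 to 0.104).

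The small subunit processome is the large complex that forms on the new rRNA precursor and releases the part destined for the small subunit. Of its 9 measured factors, 7 in Ifnar1-KO, 9 in GF and 9 in CTRL mice were called lower (10.8%, 11.8% and 13.6% of all genes). The medians of the 9 were -1.30, -1.17 and -1.63 in the same order. Wdr75, of the subcomplex that binds the precursor first, had the largest falls, with 5.32, 5.17 and 5.87 in CCR7+ against 7.92, 7.33 and 7.97 in CCR7- cells of Ifnar1-KO mice. In GF mice it read 5.87, 5.41 and 5.71 against 8.12, 7.31 and 7.79, and in CTRL mice 5.81, 5.58 and 5.37 against 7.88, 8.04 and 7.82. The stages were apart by over 1 log2 unit. Its changes were -2.29 ± 0.23, -2.07 ± 0.23 and -2.33 ± 0.23 (limma adjusted p = 3.25e-06, 8.32e-06 and 2.34e-06). Of the same subcomplex, Wdr43 changed by -1.82 ± 0.19, -1.61 ± 0.19 and -1.85 ± 0.19 and Heatr1 by -1.34 ± 0.18, -1.48 ± 0.18 and -1.64 ± 0.18.

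Utp15, also of that subcomplex, was less uniform. It read 5.93, 6.83 and 6.23 in CCR7+ against 7.04, 6.96 and 6.94 in CCR7- cells of Ifnar1-KO mice, 5.95, 5.94 and 6.97 against 7.40, 7.55 and 6.72 in GF mice and 6.06, 5.54 and 5.16 against 7.32, 7.31 and 7.03 in CTRL mice. The second Ifnar1-KO and the third GF CCR7+ array lay near or among the CCR7- arrays. Its change was called in GF (-0.94 ± 0.31) and CTRL mice (-1.63 ± 0.31) and measured -0.65 ± 0.31 in Ifnar1-KO mice (limma adjusted p = 0.179). The GF call, at adjusted p = 0.0411 from limma, was lost without any 1 of 11 single arrays (0.0506 to 0.155), of which 4 were GF arrays (CCR7- replicates 1 and 2, CCR7+ replicates 1 and 2), and with replicate number as a block (0.0864).

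Utp18 changed by -1.04 ± 0.29 in GF and -1.06 ± 0.29 in CTRL mice and measured -0.59 ± 0.29 in Ifnar1-KO mice (limma adjusted p = 0.194). It was called in Ifnar1-KO mice too with replicate number as a block (0.0229) or without Ifnar1-KO CCR7- replicate 2 (-0.87, 0.0461), an array that read 6.11 where the other 2 of its group read 6.72 and 7.17. Its call was lost in GF mice without CCR7- replicate 1 or CCR7+ replicate 2 or 3 (0.0667 to 0.0854) and in CTRL mice without CCR7+ replicate 3 (0.0702). Utp20 and Rrp9, which binds the snoRNA that guides early processing, ended under or near the median gene level in CCR7+ cells, Utp20 at 4.13 to 4.44 and Rrp9 at 4.40 to 4.81. Utp20 changed by -1.39 ± 0.24, -1.17 ± 0.24 and -1.76 ± 0.24 and Rrp9 by -0.58 ± 0.14, -0.76 ± 0.14 and -0.94 ± 0.14.

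Nop14 and Noc4l, which work as a pair in yeast, fell in all 3 backgrounds by limma. Noc4l changed by -1.30 ± 0.23, -1.54 ± 0.23 and -1.54 ± 0.23. The falls of Nop14, at -0.80 ± 0.26, -0.86 ± 0.26 and -1.01 ± 0.26, lay close to the threshold (limma adjusted p = 0.0427, 0.0284 and 0.00944). Its call was lost without any 1 of 10 single arrays in Ifnar1-KO mice, 4 of them Ifnar1-KO arrays (CCR7- replicates 1 and 3, CCR7+ replicates 1 and 2), with changes of -0.80 to -0.62 and adjusted p = 0.0513 to 0.179 from limma. It was also lost without CCR7- replicate 1 or 2 or CCR7+ replicate 3 in GF mice (0.0581 to 0.139), and without CCR7+ replicate 3 in CTRL mice (0.0501).

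The factors of late small subunit maturation act on the particle as it leaves the nucleus and trim the end of its rRNA. They were called lower in 4 of 4 cases in each background (10.8%, 11.8% and 13.6% of all genes). Their medians were -1.31, -1.38 and -1.54, all in the order Ifnar1-KO, GF and CTRL mice. Nob1, the endonuclease of that last trimming step, read 5.77, 6.82 and 6.34 in CCR7+ against 7.53, 7.36 and 7.78 in CCR7- cells of Ifnar1-KO mice, 5.75, 5.85 and 5.93 against 7.41, 7.03 and 6.59 in GF mice, and 5.71, 5.72 and 5.81 against 7.64, 7.57 and 7.10 in CTRL mice. The stages were separate within each background, although the second Ifnar1-KO CCR7+ array, at 6.82, exceeded the third GF CCR7- array, at 6.59. Its changes were -1.25 ± 0.24, -1.16 ± 0.24 and -1.69 ± 0.24. Pno1, its partner, changed by -1.37 ± 0.21, -1.95 ± 0.21 and -1.50 ± 0.21, the GTPase-like factor Tsr1 by -1.74 ± 0.29, -1.60 ± 0.29 and -1.58 ± 0.29, and the export factor Rrp12 by -0.68 ± 0.12, -0.77 ± 0.12 and -0.60 ± 0.12.

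Assembly factors of the large subunit were called lower in 10 of 10 cases in Ifnar1-KO, 9 of 10 in GF and 10 of 10 in CTRL mice. Of all genes 10.8%, 11.8% and 13.6% were called lower in that order. The medians of these factors were -1.05, -0.98 and -1.34. Pes1, Bop1 and Wdr12 form 1 complex, yet their measured falls differed in size. Wdr12 read 4.64, 5.52 and 5.15 in CCR7+ against 7.36, 6.25 and 7.92 in CCR7- cells of Ifnar1-KO mice, 4.94, 4.69 and 4.25 against 7.48, 7.61 and 7.82 in GF mice, and 4.90, 4.64 and 4.75 against 7.64, 7.43 and 7.49 in CTRL mice. The stages did not overlap, and the CCR7- array nearest to the mature cells was Ifnar1-KO replicate 2. The changes of Wdr12 were -2.07 ± 0.32, -3.01 ± 0.32 and -2.75 ± 0.32, and a further probeset of it measured -2.32 in CTRL mice. Pes1 changed by -0.96 ± 0.20, -0.72 ± 0.20 and -1.40 ± 0.20, and Bop1 by -0.54 ± 0.13, -0.46 ± 0.13 and -0.80 ± 0.13.

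Rrs1, which in yeast helps to load a small rRNA and its proteins onto the precursor of the large subunit, varied most between backgrounds in its fall. It read 4.80, 4.75 and 4.31 in CCR7+ against 7.37, 7.91 and 7.66 in CCR7- cells of Ifnar1-KO mice. In GF mice the values were 5.87, 5.35 and 6.98 against 7.57, 7.27 and 7.88, and in CTRL mice 5.29, 5.57 and 3.88 against 7.34, 7.79 and 7.45. The CCR7+ arrays of GF and CTRL mice spread over more than 1 log2 unit, while the CCR7- arrays of all backgrounds lay between 7.27 and 7.91. The changes were -3.03 ± 0.41, -1.51 ± 0.41 and -2.61 ± 0.41 (limma adjusted p = 6.04e-05, 0.0149 and 0.000196). Rrs1 was the only 1 of the 41 whose changes in the 3 backgrounds spanned over 1 log2 unit, while 28 of the 41 spanned less than 0.5.

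The remaining 6 large subunit factors are given in the order Ifnar1-KO, GF and CTRL mice. Nop16 changed by -1.40 ± 0.28, -1.73 ± 0.28 and -1.43 ± 0.28, Ebna1bp2 by -1.29 ± 0.25, -1.37 ± 0.25 and -1.29 ± 0.25, and Noc3l by -1.11 ± 0.23, -0.96 ± 0.23 and -1.47 ± 0.23. The rRNA methyltransferase Nop2 changed by -0.76 ± 0.21, -1.0 ± 0.21 and -1.01 ± 0.21 and Nip7 by -0.92 ± 0.16, -0.54 ± 0.16 and -1.19 ± 0.16. Rrp1b, at 3.67 to 4.10 on the CCR7+ arrays, lay among the lowest levels of the 41. It was called in Ifnar1-KO (-0.99 ± 0.30) and CTRL mice (-0.97 ± 0.30) and measured -0.80 ± 0.30 in GF mice, where GF CCR7- replicate 1 read 5.62 and the other 2 read 4.21 and 4.20 (limma adjusted p = 0.0719).

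Single arrays decided several calls among the large subunit factors by limma. In GF mice the call was lost without 1 of 3 GF arrays for Rrs1 (CCR7- replicate 3, CCR7+ replicates 1 and 2; -1.41 to -1.15, adjusted p = 0.0537 to 0.0793), Pes1 (CCR7- replicate 1, CCR7+ replicates 1 and 3; 0.0515 to 0.0768) and Bop1 (CCR7- replicates 1 and 3, CCR7+ replicate 3; 0.0629 to 0.0922). That of Nip7 was lost without 1 of 4 (CCR7- replicate 1 or any CCR7+ array; 0.0514 to 0.141). The call of Nop2 in Ifnar1-KO mice was lost without CCR7- replicate 3 or CCR7+ replicate 1 (0.0657 to 0.0906). Rrp1b was lost in Ifnar1-KO mice without CCR7- replicate 1 or 3 or CCR7+ replicate 1 or 2 (0.0565 to 0.114) and in CTRL mice without replicate 1 or 2 of either stage (0.0527 to 0.0941), and was called in GF mice without CCR7- replicate 2 or 3 (-1.04 to -1.03, 0.0314 to 0.0325).

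**Figure D3:**
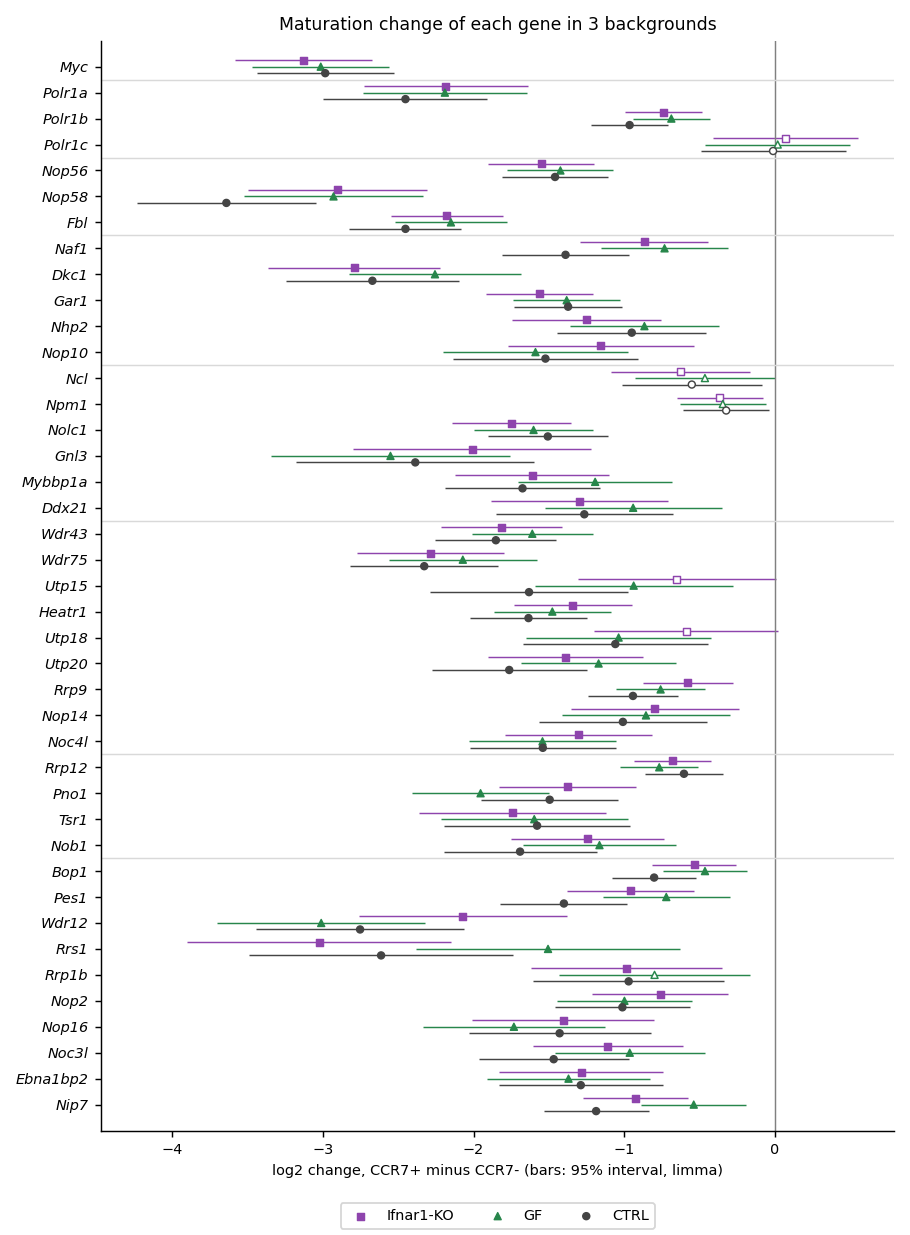
Maturation change of each gene, CCR7+ minus CCR7-, on the log2 scale in Ifnar1-KO (purple squares), GF (green triangles) and CTRL mice (grey circles), with 95% intervals from limma. Filled symbols were called and open symbols were not, and grey lines separate the roles. All points but those of Polr1c lie left of 0, from -0.32 for Npm1 to -3.64 for Nop58 in CTRL mice.

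Factors of the same steps outside the 41 also fell, less uniformly. Of 38 other small subunit factors, 19 in Ifnar1-KO, 20 in GF and 24 in CTRL mice were called lower and none higher, with medians of -0.83, -0.71 and -0.89. The shares called lower were 50%, 52.6% and 63.2%, against 10.8%, 11.8% and 13.6% of all genes. The falls were led in CTRL mice by Ltv1, an export adaptor in yeast (-1.88 ± 0.24, -1.79 ± 0.24 and -2.32 ± 0.24 in Ifnar1-KO, GF and CTRL mice), and Utp14a (-1.82 ± 0.22, -2.15 ± 0.22 and -2.30 ± 0.22). Of 16 genes of snoRNP assembly and the RNA exosome, which trims rRNA, 12, 11 and 14 (75%, 68.8% and 87.5%) were called lower and none higher. The ATPase Ruvbl1, which helps to assemble snoRNPs, changed by -2.72 ± 0.21, -2.94 ± 0.21 and -2.80 ± 0.21.

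Among 45 other large subunit factors, 21, 22 and 27 were called lower in Ifnar1-KO, GF and CTRL mice, and 3 were called higher in each. The shares called lower were 46.7%, 48.9% and 60%, against 10.8%, 11.8% and 13.6% of all genes. The share called higher was 6.67% in each, against 9.42%, 9.53% and 12.6% of all genes. Sdad1 had the largest fall, at -4.39 ± 0.27, -4.15 ± 0.27 and -4.63 ± 0.27. The 3 genes that rose in CTRL mice were Sbds, which acts on the finished large subunit in the cytoplasm, Zfp622 and the GTPase gene Gtpbp4. Sbds rose by 1.55 ± 0.15, 1.66 ± 0.15 and 1.52 ± 0.15 in Ifnar1-KO, GF and CTRL mice, Zfp622 by 0.70 ± 0.21, 0.78 ± 0.21 and 0.73 ± 0.21, and Gtpbp4 by 0.84 ± 0.14, 0.93 ± 0.14 and 0.72 ± 0.14. All 9 of these rises passed the test in limma.

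The ribosomal proteins themselves, the parts that these factors assemble, were mostly not called. Of 54 cytosolic ribosomal protein genes, 4 in Ifnar1-KO, 5 in GF and 5 in CTRL mice were called lower and 0, 0 and 1 higher, with medians of 0.02, -0.04 and -0.01. These shares of 7.41%, 9.26% and 9.26% called lower lie below the 10.8%, 11.8% and 13.6% of all genes. Rpl8 changed by -0.32 ± 0.09, -0.43 ± 0.09 and -0.53 ± 0.09, and Rpl4 by -0.31 ± 0.08, -0.42 ± 0.08 and -0.42 ± 0.08. Rps19 rose by 0.35 ± 0.11 in CTRL mice. The mean level of the 54 genes was 11.58 to 11.68 over the CCR7+ arrays and 11.61 to 11.73 over the CCR7- arrays. Whether pseudogenes add to the signal of these probesets was not tested.

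**Figure D4:**
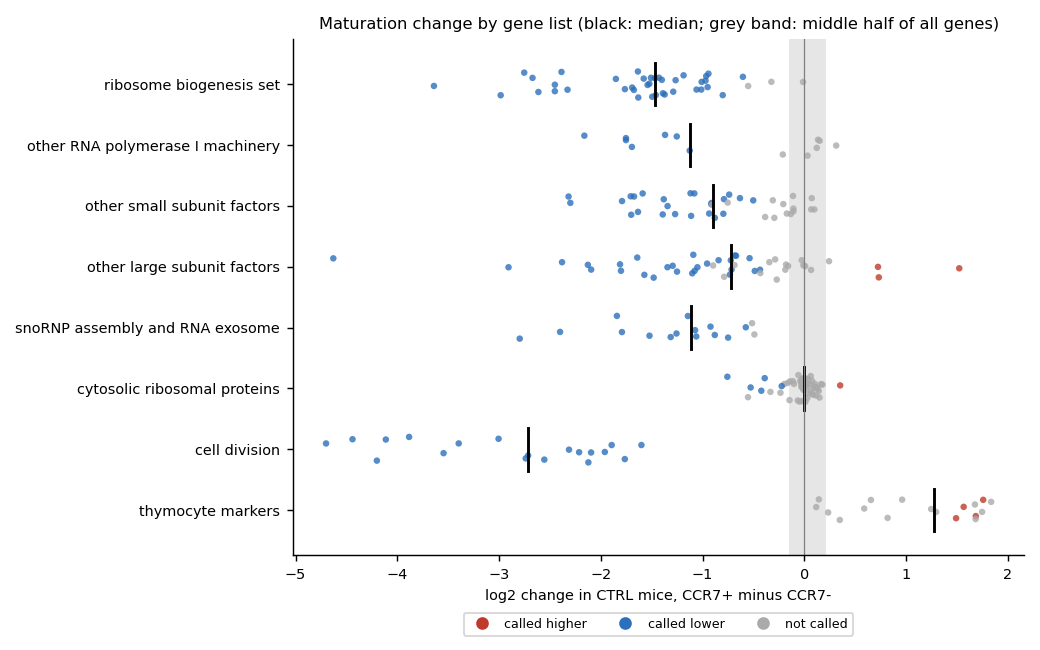
Maturation change in CTRL mice, CCR7+ minus CCR7- on the log2 scale, for the 41 genes and 7 further gene lists. Each point is a gene, red where called higher, blue where called lower and grey where not called, black bars are list medians and the grey band spans the middle 50% of all genes. The 41 genes centre on -1.47 and the 54 ribosomal protein genes on -0.01.

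Genes of cell division were lower in CCR7+ cells, while most thymocyte markers were not called. Of 19 cell division genes, 18 in Ifnar1-KO, 18 in GF and 19 in CTRL mice were called lower (10.8%, 11.8% and 13.6% of all genes). The medians of the 19 genes were -2.48, -2.54 and -2.71. Their mean level was 5.58 to 6.28 over the CCR7+ arrays and 8.33 to 8.85 over the CCR7- arrays. Of 18 thymocyte markers 4 were called higher in each background (22.2%, against 9.42%, 9.53% and 12.6% of all genes in Ifnar1-KO, GF and CTRL mice), 14 were not called, and all 18 had a positive change (medians 1.43, 1.28 and 1.27). Their mean level ranged from 5.42 to 7.95 in Ifnar1-KO, 5.53 to 6.29 in GF and 5.33 to 6.14 in CTRL CCR7+ cells, against 4.65 to 5.29, 4.63 to 4.79 and 4.56 to 4.95 in the CCR7- cells of the same backgrounds. The highest value was that of Ifnar1-KO CCR7+ replicate 2, on which the 41 genes averaged 6.18, inside the range of 6.02 to 6.33 of the CCR7+ arrays. That mean hides shifts both ways. Among the CCR7+ arrays, replicate 2 of Ifnar1-KO mice held the lowest value for 9 of the 41 genes and the highest for 8. CTRL CCR7+ replicate 3 also held the lowest value for 9, and GF CCR7+ replicate 3 the highest for 8. Such counts were thus not particular to the array with the highest thymocyte marker level. The part of division or of thymocyte RNA in the falls of the 41 genes was not tested.

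Of 13 markers of XCR1+ DCs, 8 were called lower in CCR7+ cells in each background, while 1 in Ifnar1-KO, 2 in GF and 2 in CTRL mice were called higher. The share called lower was 61.5% in each, against 10.8%, 11.8% and 13.6% of all genes. The shares called higher were 7.69%, 15.4% and 15.4%, against 9.42%, 9.53% and 12.6% of all genes. Xcr1 changed by -4.54 ± 0.60, -4.39 ± 0.60 and -5.11 ± 0.60, and Clec9a, a receptor for dead cells, by -2.35 ± 0.23, -2.43 ± 0.23 and -2.68 ± 0.23 in Ifnar1-KO, GF and CTRL mice. Batf3, a transcription factor that this lineage needs, rose by 0.71 ± 0.20, 0.60 ± 0.20 and 0.95 ± 0.20 in the same order, and Id2 rose by 0.19 ± 0.06 in GF and 0.28 ± 0.06 in CTRL mice. In CCR7- cells both were high on every array, Xcr1 at 11.28 to 11.56 and Clec9a at 10.43 to 11.02. In CCR7+ cells Xcr1 lay between 4.89 and 8.36, and no CCR7+ array came near the CCR7- range. Of 17 markers of other cell types, 1, 0 and 3 were called higher and 3, 1 and 3 lower, with mean levels of 4.66 to 5.0 on all arrays. Called higher were 5.88%, 0% and 17.6%, against 9.42%, 9.53% and 12.6% of all genes. Called lower were 17.6%, 5.88% and 17.6%, against 10.8%, 11.8% and 13.6% of all genes.

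**Figure D5:**
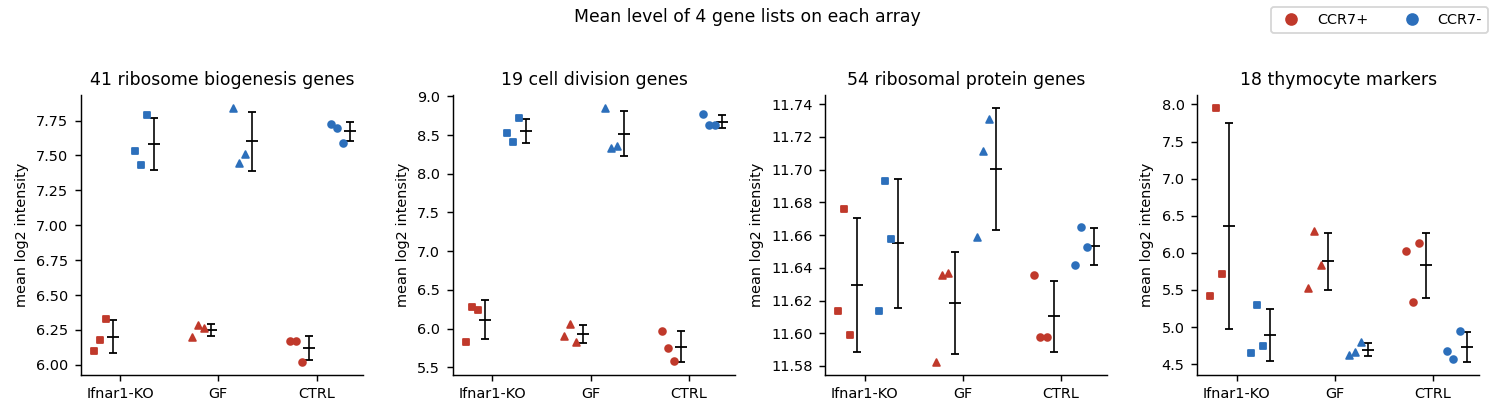
Mean log2 intensity of 4 gene lists on each array (each panel has its own axis, which does not start at 0). Points are arrays, red for CCR7+ and blue for CCR7-, and black lines give the mean and SD of 3 arrays. The 41 genes and the 19 cell division genes separate by stage on every array, the ribosomal protein genes stay between 11.58 and 11.73, and Ifnar1-KO CCR7+ replicate 2 has the highest thymocyte marker level, at 7.95.

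The second question was whether the maturation change depended on type I interferon signalling or on the microbiota. Both differences were taken from the same CTRL arrays, so they are not independent. For Ifnar1-KO minus CTRL maturation, limma called 0 of the 41 genes and 0 of all genes (0%), with 1 of the 41 and 901 of all genes at an unadjusted p under 0.05. For GF minus CTRL maturation it called 0 of the 41 and 0 of all genes (0%), with 3 of the 41 and 660 of all genes under that p. The differences of the 41 genes ranged from -0.41 (Rrs1) to 0.98 (Utp15) for Ifnar1-KO and from -0.46 (Pno1) to 1.11 (Rrs1) for GF mice, with medians of 0.21 and 0.16 against -0.03 and -0.02 over all genes. For a gene that fell, a positive value means a smaller fall than in CTRL mice. Of the 41, 28 were positive in each, against 8525 (Ifnar1-KO) and 9006 (GF) of all 19938 genes. Most other lists that fell leaned the same way. In Ifnar1-KO and GF mice 18 and 15 of 19 cell division genes were positive. So were 35 and 32 of 45 other large subunit factors and 29 and 24 of 38 other small subunit factors. For snoRNP assembly and the RNA exosome it was 12 and 8 of 16 genes. The lean was therefore not particular to the 41 genes. The lowest change was that in Ifnar1-KO mice for 12 genes, in GF mice for 8 and in CTRL mice for 21. The CTRL count includes Polr1c, which changed by -0.01 there and was called in no background. The arrays that stood apart in Mki67 all came from Ifnar1-KO and GF mice. On them the 41 genes averaged 7.43 to 7.51 in CCR7- and 6.18 to 6.28 in CCR7+ cells. The CTRL arrays averaged 7.59 to 7.73 and 6.02 to 6.17. GF replicate 1, which did not stand apart, averaged 7.84 in CCR7- and 6.20 in CCR7+ cells. The part of these arrays in the positive differences was not tested.

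The arrays could not settle small differences. The 95% interval of a difference extended a median of 0.69 to each side, and for 25 of the 41 genes in Ifnar1-KO and 23 in GF mice it lay within 1 log2 unit of 0. For Myc the difference was -0.15 ± 0.30 (interval -0.79 to 0.50) in Ifnar1-KO and -0.03 ± 0.30 (interval -0.67 to 0.61) in GF mice. Utp15 in Ifnar1-KO mice, at 0.98 ± 0.43, and Nip7 at 0.65 ± 0.23, Pes1 at 0.68 ± 0.28 and Naf1 at 0.66 ± 0.28 in GF mice were the genes under an unadjusted p of 0.05, with limma adjusted p = 0.958 and above.

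Between backgrounds within a stage, again against the same CTRL arrays, 1 of the 41 genes was called in 1 of 4 comparisons. In CCR7+ cells Ifnar1-KO minus CTRL gave 0 of 41 (0.015% of all genes called) and 5 of 41 at an unadjusted p under 0.05 (12.2%, against 2.92% of all genes). In CCR7- cells Ifnar1-KO minus CTRL gave 0 of 41 (0% of all genes) and GF minus CTRL 0 of 41 (0.015% of all genes), each with 1 of 41 at an unadjusted p under 0.05 (2.44%, against 7.03% of all genes for Ifnar1-KO and 6.32% for GF). In CCR7+ cells GF minus CTRL called Naf1 (1 of 41, with 0.0301% of all genes called), and 6 of 41 had an unadjusted p under 0.05 (14.6%, against 5.86% of all genes). Few of the 41 had all 3 arrays to 1 side of all 3 CTRL arrays. In CCR7+ cells these were Naf1, Bop1, Pes1 and Nop2 above CTRL (3.58% of all genes) and Tsr1 below it (3.36%) in Ifnar1-KO mice, and Nop58, Naf1, Mybbp1a and Nip7 above CTRL in GF mice (5.91%). In CCR7- cells Rrp9 and Nop14 lay below CTRL in Ifnar1-KO mice (4.41%), Naf1, Nhp2 and Noc4l above it in GF mice (9.6%) and Nop14 below it in GF mice (5.21%).

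The GF CCR7+ arrays read Naf1 at 5.61, 5.35 and 6.19, against 4.31, 4.33 and 4.38 on the CTRL CCR7+ arrays, a difference of 1.38 ± 0.20 or 2.59-fold with limma adjusted p = 0.0197 (higher on 3 of 3 GF arrays). In CCR7- cells Naf1 differed by 0.72 ± 0.20 between GF and CTRL mice, with all 3 GF arrays above all 3 CTRL arrays, but was not called (adjusted p = 0.766 by limma). Ifnar1-KO CCR7+ cells lay between, with a difference from CTRL of 0.61 ± 0.20 that was not called. The CTRL CCR7+ values lay under the median gene level of 4.68. The call was lost without CTRL CCR7+ replicate 1, 2 or 3 (adjusted p = 0.0922, 0.0742 and 0.128 by limma), without GF CCR7+ replicate 3 (1.14, 0.103), with only the groups compared (0.363), with replicate number as a block (0.0523) and with a mark of the array codes as a covariate. Over the 28 alternatives the difference ranged from 1.14 to 1.56 and its limma adjusted p from 0.0097 to 0.363. The codes of 6 GF, 4 Ifnar1-KO and 2 CTRL arrays carry a final r that the labels do not explain, and with it as a covariate the difference was 1.22 (adjusted p = 0.149). The 1 CTRL CCR7+ array with the mark read 4.31, and those without it read 4.33 and 4.38. No GF array lacks the mark, so the mark and germ-free housing cannot be fully told apart here.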

How the data were processed

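RNA of sorted thymic XCR1+ DCs was amplified and hybridised to Affymetrix Mouse Gene 1.0 ST arrays, per the labels. The deposited values are log2 intensities made by RMA with the oligo package, per the submitters' processing notes, which give no versions. RMA usually forces the arrays to 1 common distribution, so a change in total RNA per cell would not be visible in them. Of 35556 probesets, 21789 had exactly 1 gene symbol, 1621 several and 12146 none in the platform annotation. The probeset with the highest mean stood for each of 19938 genes (999 had several).

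Group means were fitted to all 18 arrays with limma (version 3.58.1, R 4.3.3: lmFit and eBayes with 12 residual degrees of freedom, 14.4 after eBayes). The 9 contrasts were tested, each with Benjamini-Hochberg adjustment over all genes and a threshold of 0.05, and the code was tested on simulated data. Precision is limited by 3 arrays per group. Groups came from the labels, and in CTRL replicate 2 the array code letters run against the labelled stage, which was used. All 41 genes could be named. Of other lists, the named genes were called genes with the largest CTRL maturation changes, at most 3 a direction, genes of the MYC and MAX network, and defining markers of the sorted cells and of division. The 41 genes and all gene lists were chosen with earlier results of these data known.

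Same-numbered CCR7+ and CCR7- arrays were checked for pairing by the correlation of their deviations from group means. It was 0.284, 0.321 and 0.236 in Ifnar1-KO, 0.267, 0.00354 and 0.0296 in GF and 0.188, 0.147 and 0.1 in CTRL mice, and the labels do not say what the numbers share. Arrays of different numbers gave -0.306 to 0.143, -0.204 to 0.198 and -0.161 to 0.0118 in the same order. Same-numbered arrays lay above these ranges in Ifnar1-KO and CTRL but not in GF mice. Deviations cancel within a group, so these values are not independent of each other. The main fit used no pairing. The alternatives were arrays left out, only the groups compared, replicate number as a block, the trailing r as a covariate, all probesets of a gene averaged, weighted arrays, a variance trend with intensity, median-centred arrays, and only the genes with at least the median level. Noc2l was not analysed here. Promoter windows came from RefSeq (GRCm38.p6) and were searched with Python 3.11.15.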

Additional observations from a re-analysis of the deposited data

How the results depend on the processing

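Over 28 alternatives, 30 of the 36 genes called lower in Ifnar1-KO, 25 of 37 in GF and 35 of 38 in CTRL mice kept their call under every one. Leaving out 1 array gave 33 to 38, 30 to 38 and 36 to 39 calls among the 41 genes in that order, fewest without Ifnar1-KO CCR7- replicate 3, GF CCR7- replicate 1 and CTRL CCR7+ replicate 3. Fitting only the groups compared gave 34, 27 and 39 calls. The replicate block gave 38, 37 and 39; it changed the calls of Ncl, Utp18, Utp15 and Naf1 given above and no other. Of 2 settings chosen after seeing the data, dropping Ifnar1-KO replicate 2 gave 33, 37 and 39, and dropping GF replicates 2 and 3 as well gave 38, 32 and 39. The only changes whose sign turned were those of Polr1c, never called: with 1 array left out they ranged from -0.15 to 0.31 in Ifnar1-KO, -0.14 to 0.22 in GF and -0.066 to 0.062 in CTRL mice, and array weights gave 0.0055 in CTRL mice. For GF minus CTRL in CCR7+ cells the count of 1 (Naf1) was 0 with only the groups compared, with the replicate block and with the trailing r as a covariate, and 0 to 1 with 1 array left out; the cause was not tested. Over all genes that comparison gave 2 to 13 calls with 1 array left out, GF minus CTRL in CCR7- cells 3 to 41, and Ifnar1-KO minus CTRL 1 to 7 in CCR7+ and 0 to 4 in CCR7- cells. Levels under the median gene level of 4.68, where background adds to the signal, were the CCR7+ means of 7 of the 41 genes in Ifnar1-KO, 7 in GF and 8 in CTRL mice.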
